A study of Mus musculus with 6 samples.

Results

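The genes for the transcription factor STAT5, for its feedback inhibitors of the SOCS family and for the PIM kinases were followed in 6 mouse lines that are positive for BCR-ABL, a fusion kinase known from the Philadelphia chromosome. They were 10 genes, taken by symbol from the 25965 rows of the count table: Stat5a and Stat5b, Cish, Socs1, Socs2 and Socs3, Pim1, Pim2 and Pim3, and Osm. They were defined by symbol, with no threshold on a measured value. The 3 KO lines (KO1, KO2 and KO3) are labelled Cdk6 knock out and had been electroporated with a plasmid for Cas9, GFP and guide RNAs against CDK6, whose name in the labels ends in hCDK6del although the cells are of mouse, and the labels do not say which sequence the guides match. The 3 WT lines (WT1, WT2 and WT3) are labelled Cdk6 wild type and had received the control plasmid with Cas9 and GFP and no such guide. Both groups are BCR-ABL positive and were grown in serum-containing medium, and per the labels clones were grown out from sorted single GFP+ cells and loss of CDK6 was checked by Western blot. The labels do not say whether the lines came from separate mice or from 1 parent line, so that p-values measure the spread between these lines, which may be clonal or technical.

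STAT5A and STAT5B are closely related transcription factors that are phosphorylated by JAK kinases below cytokine receptors, and in BCR-ABL cells also downstream of the fusion kinase. Phosphorylated dimers enter the nucleus and bind DNA at a palindromic site, and Cish, Socs1, Socs2, Socs3, Pim1, Pim2 and Osm are known as genes that STAT factors induce. CIS and the SOCS proteins bind receptors or JAKs and dampen the signal, whereas the PIM proteins are serine/threonine kinases, active as soon as they are made, that promote survival and growth. In B cell precursors STAT5 normally carries the IL-7 signal, and in leukaemia started by BCR-ABL it is known to be needed by the cells.

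Across the whole table, total counts lay between 17859519 (KO1) and 24108563 (WT1), and 3 counts corresponded to 0.125 to 0.165 CPM (the counts of a gene relative to all counts of its library, scaled by TMM, a correction for library composition). Line KO2 stood apart, at 112.5 on a first principal component that held 67.9% of the variance, while WT2 lay at 12.57 and the other 4 libraries between -38.4 and -28.3. For this reason each of the 10 genes has its fold change given with and without KO2. The direction of the targeted transcript turned with KO2. Cdk6 lay at 41.3, 75.0 and 38.95 CPM across KO1 to KO3 and at 39.7, 45.6 and 55.9 CPM across WT1 to WT3 (log2 fold change 0.14 ± 0.29 SE, edgeR adjusted p = 0.9), and without KO2 the log2 fold change was -0.22 ± 0.155 (adjusted p = 0.448). Whole-gene counts do not show a frameshift, so KO and WT name the lines as labelled. All 8 markers of B cell precursors passed the low-count filter, and their summed level was 3445 to 4701 CPM in KO and 4179 to 4258 CPM in WT. Of the markers of other cell types, Cd3e, Cd4 and Cd8a of T cells, Elane, S100a8 and S100a9 of neutrophils and Ncr1 of NK cells were at 0 in every library, and others of the same lists were not. The summed myeloid list lay at 42.6, 16.5 and 19.95 CPM across KO1 to KO3 and at 45.6, 29.2 and 41.3 CPM across WT1 to WT3. In it Lyz2, which encodes a lysozyme, had 12.2, 15.8 and 14.65 CPM in KO and 38.9, 27.2 and 37.1 CPM in WT, lower in every KO line (DESeq2 adjusted p = 1.15e-05, edgeR adjusted p = 0.479), and Itgam reached 28.9 CPM in KO1. The summed T cell list, mostly Lat, was 0.512 to 1.87 CPM in KO and 1.54 to 7.59 CPM in WT. The part of these markers in the levels of the 10 genes was not tested.

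The promoters of 3 of the genes are shown because they bear on the site that STAT5 reads and on the genes whose level varied most. The STAT site was searched as TTCNNNGAA, which reads the same on both strands, in RefSeq windows of GRCm38.p6. A window ran from 250 bases before to 50 after an annotated start, and not every start had a window. For Stat5a, Stat5b and Socs3 the windows lay inside the gene and did not cover its outermost start. Of 32544 different windows of all mouse genes, 8.33% held it at least once and 0.461% at least 2 times. Windows were found for 8 of the 10 genes (11 windows in all), and not for Socs2 and Osm. The windows of Cish and Socs3 held the site and those of the other 6 genes did not, which says only that these letters are not in these windows. The capitals mark the sites.
Cish (chr9:107296409-107296708, plus strand): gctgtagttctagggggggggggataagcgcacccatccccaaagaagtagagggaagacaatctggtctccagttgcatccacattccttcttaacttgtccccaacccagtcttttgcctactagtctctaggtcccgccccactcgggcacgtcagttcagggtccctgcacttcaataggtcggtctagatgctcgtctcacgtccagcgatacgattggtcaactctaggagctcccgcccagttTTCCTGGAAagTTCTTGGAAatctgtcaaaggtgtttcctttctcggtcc
Socs3 (chr11:117969317-117969616, minus strand): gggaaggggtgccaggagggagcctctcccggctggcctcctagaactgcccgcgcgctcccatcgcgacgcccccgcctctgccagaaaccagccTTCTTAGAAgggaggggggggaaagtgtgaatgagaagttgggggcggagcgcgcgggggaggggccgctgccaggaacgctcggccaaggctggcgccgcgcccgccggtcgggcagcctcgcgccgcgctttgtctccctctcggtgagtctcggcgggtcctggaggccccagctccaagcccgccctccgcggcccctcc
Pim2 (chrX:7878056-7878355, plus strand): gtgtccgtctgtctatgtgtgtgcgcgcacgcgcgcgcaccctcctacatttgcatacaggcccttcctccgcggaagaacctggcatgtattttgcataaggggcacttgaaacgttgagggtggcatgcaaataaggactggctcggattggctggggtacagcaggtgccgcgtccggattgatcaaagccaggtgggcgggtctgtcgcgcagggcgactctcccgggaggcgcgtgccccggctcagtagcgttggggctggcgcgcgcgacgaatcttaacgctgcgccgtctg
In Cish the sites TTCCTGGAA and TTCTTGGAA begin at bases 1 and 12 of the annotated transcript and are 2 bases apart. In Socs3 the site TTCTTAGAA begins 154 bases before the start used for its window, which is an internal start of the gene. The Pim2 window held none.

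**Figure D1:**
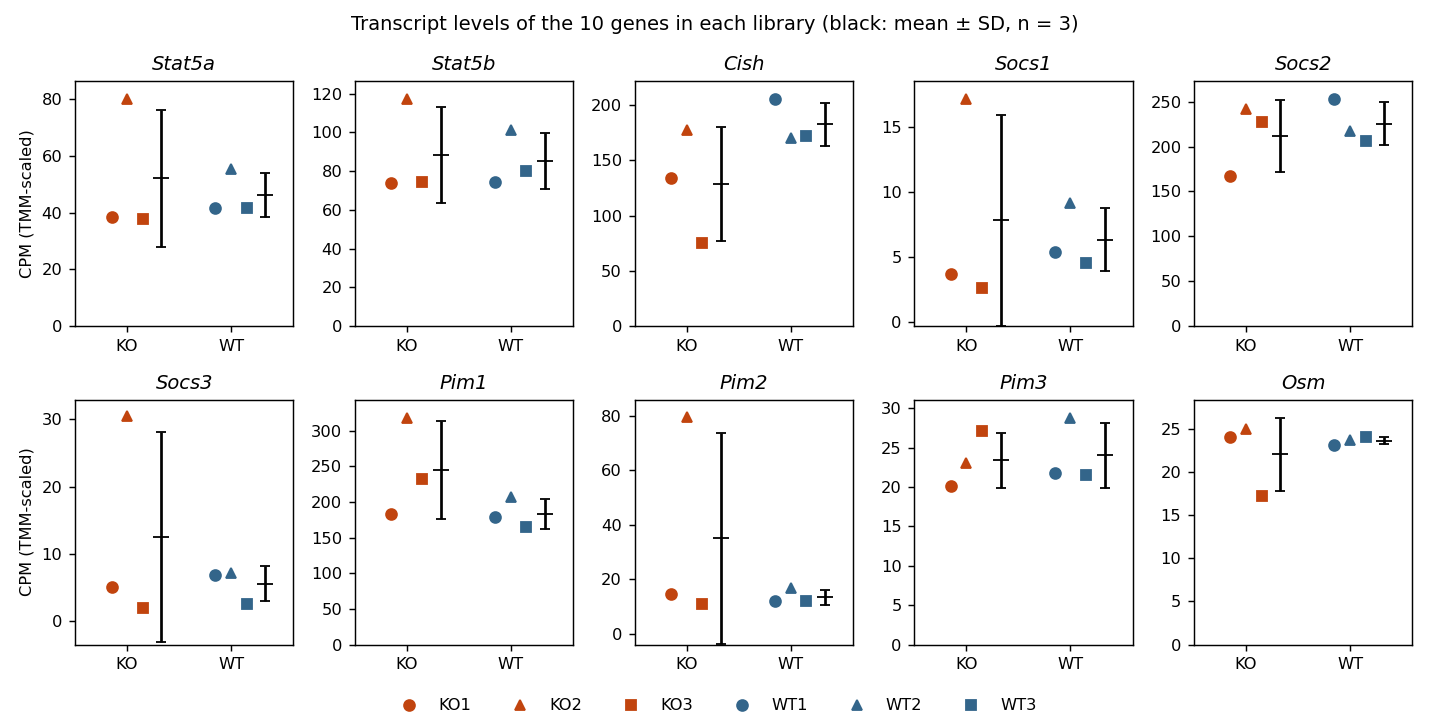
Level of each of the 10 genes in every library, in TMM-scaled CPM on a linear axis. Points are libraries (circle, triangle and square for numbers 1, 2 and 3), and black bars give the mean and SD of 3. KO2 is the highest of the 6 points for 7 genes, and no gene has KO and WT points that do not overlap.

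All 10 genes passed the filter on low counts, and 0 of the 10 differed between KO and WT by edgeR's quasi-likelihood test (Benjamini-Hochberg adjusted p under 0.05 over the 10896 genes tested). The background was the same, since 0 of all genes tested passed (0%). At an unadjusted p under 0.05 there were 0 of the 10 genes and 1030 of all genes (9.45%). DESeq2 called 0 of the 10 genes and 218 genes in all (1.94%), and limma-voom called 0 in each (0%). For 0 of the 10 genes was the lowest KO library above the highest WT library, which held for 8.53% of all genes tested, and for 0 was the highest KO library below the lowest WT library, which held for 11%. By library totals in place of TMM the 929 genes with KO above and 1202 with KO below became 1153 and 946, and still 0 of the 10 genes were among them. The median log2 fold change was 0.11 over the 10 genes and 0.015 over all genes tested, and 6 of the 10 were positive.

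Per kilobase of annotated exon, Pim1 was the most abundant of the 10 transcripts in every library and Socs1 and Socs3 were the least abundant on average in WT. Here a level is RPKM, TMM-scaled CPM divided by the GENCODE exon length. Pim1 lay at 72.8 ± 20.3 RPKM in KO and 54.4 ± 6.44 RPKM in WT (SD, n = 3 each). Next came Cish with 20.1 ± 8.05 RPKM in KO and 28.4 ± 3.09 RPKM in WT, and Socs2 with 22.3 ± 4.19 RPKM in KO and 23.7 ± 2.55 RPKM in WT. Stat5b followed with 15.9 ± 4.51 RPKM in KO and 15.4 ± 2.58 RPKM in WT. The KO ranges of Cish and Socs2 overlap, whereas in WT the lowest Cish value (26.53 RPKM) was next to the highest Socs2 value (26.52 RPKM). Osm had 9.73 ± 1.88 RPKM in KO and 10.4 ± 0.192 RPKM in WT, and Pim3, whose ranges overlap with those of Osm in both groups, had 9.65 ± 1.45 RPKM in KO and 9.91 ± 1.70 RPKM in WT. Stat5a lay at 7.31 ± 3.39 RPKM in KO and 6.48 ± 1.099 RPKM in WT. Pim2 lay at 12.6 ± 13.8 RPKM in KO and 4.85 ± 0.980 RPKM in WT. The lowest WT means were those of Socs1, 2.69 ± 2.79 RPKM in KO and 2.18 ± 0.840 RPKM in WT, and Socs3, 4.32 ± 5.43 RPKM in KO and 1.91 ± 0.889 RPKM in WT, whose ranges overlap.

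The pair of STAT5 genes lies head to head on chromosome 11 (GRCm38). Stat5b runs from 100780731 to 100859004 on the minus strand and Stat5a from 100859351 to 100885169 on the plus strand. Their outermost annotated ends are 346 bases apart. The promoter windows searched lay further apart, the nearest at 100850532 to 100850831 for Stat5b and 100859406 to 100859705 for Stat5a. Stat5a lay at 38.6, 80.05 and 37.7 CPM across KO1 to KO3 and at 41.7, 55.3 and 41.7 CPM across WT1 to WT3. The library numbered 2 was thus the highest in each group, and KO1 and KO3 lay below every WT library. The fitted log2 fold change, KO over WT, was 0.175 ± 0.335 (SE; 95% CI -0.66 to 1.00; edgeR adjusted p = 0.891), and without KO2 it was -0.27 ± 0.15 (adjusted p = 0.363).

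Stat5b, the more abundant of the pair, lay at 73.6, 117 and 74.2 CPM across KO1 to KO3 and at 74.2, 101 and 80.2 CPM across WT1 to WT3. Its order of libraries was close to that of Stat5a, with KO2 and WT2 on top. On the log2 scale Stat5b differed by 0.05 ± 0.23 (95% CI -0.51 to 0.62, adjusted p = 0.959), against -0.20 ± 0.14 without KO2 (adjusted p = 0.46). Across the 6 libraries log2 CPM of the pair correlated at 0.974 (Pearson), and at 0.967 over the 5 libraries without KO2. These are descriptions of few points that share library composition. The ratio of Stat5b to Stat5a counts was 1.91, 1.46 and 1.97 across KO1 to KO3 and 1.78, 1.83 and 1.93 across WT1 to WT3, so that KO2 had the lowest ratio. The 2 transcripts share sequence: 8.21% of the 50-base words of Stat5a occur in Stat5b and 10.98% of those of Stat5b occur in Stat5a, and how the counting treated such reads is not stated in the labels. Stat5a also shares 72 exonic bases (1% of its exons) with Stat3 on the other strand.

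Among the feedback genes Cish, which encodes CIS, an inhibitor at the cytokine receptor and the classical STAT5-induced gene, had the lowest log2 fold change of the 10. Cish lies on chromosome 9 (107296659 to 107302784, plus strand). It lay at 133.8, 177.8 and 74.8 CPM across KO1 to KO3 and at 205.3, 170.3 and 171.7 CPM across WT1 to WT3. KO3 was the lowest library, KO1 also lay below every WT library, and KO2 lay within the WT range. The means were 129 ± 51.65 CPM in KO and 182 ± 19.8 CPM in WT (SD, n = 3 each). This corresponded to a log2 fold change of -0.50 ± 0.31 (95% CI -1.27 to 0.27; edgeR adjusted p = 0.639).

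The value for Cish changed with the KO line left out. Without KO2 its log2 fold change was -0.80 ± 0.26 (edgeR adjusted p = 0.222), and without KO3 it was -0.23 ± 0.16 (adjusted p = 0.65). DESeq2 without KO2 called Cish lower in KO (-0.80 ± 0.24, DESeq2 adjusted p = 0.0208), and there it called 684 genes in all (5.95%). Over all 17 alternatives the adjusted p of Cish ran from 0.0208 to 0.997, and its sign was negative in each. DESeq2 without both WT2 and KO2 did not (-0.85 ± 0.425, adjusted p = 0.379), where 2.89% of all genes were called. KO1 and KO3 both lay below all WT libraries for 3 of the 10 genes, Stat5a, Cish and Socs1, against 21.9% of all genes. Both lay above all WT libraries for 0 of the 10, against 19.9% of all genes. Exons of Cish overlap 2 pseudogene or antisense annotations on the other strand, over 7.5% of its exons for Gm17041 and 4.1% for Gm17040, and Gm17041 lay at 0 to 0.358 CPM.

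Socs2, known as the inhibitor of growth hormone signalling, was expressed at a level near that of Cish. Its highest and lowest libraries other than KO2 differed 1.52-fold, against a median of 1.32-fold over all genes tested. The gene lies on chromosome 10 (95383903 to 95417321, minus strand). It lay at 166.7, 241.7 and 227.8 CPM across KO1 to KO3 and at 252.8, 217.2 and 206.4 CPM across WT1 to WT3. KO1 was the lowest library and the other 5 lay within 206 to 253 CPM. Socs2 had a log2 fold change of -0.09 ± 0.16 (95% CI -0.49 to 0.32, adjusted p = 0.886), and one of -0.19 ± 0.16 without KO2 (adjusted p = 0.535).

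Socs1, whose product blocks the catalytic site of JAKs, was low and separated KO2 from KO1 and KO3. It lies on chromosome 16 (10783808 to 10785536, minus strand). It had 67, 335 and 55 counts across KO1 to KO3 and 129, 171 and 91 counts across WT1 to WT3. In CPM these were 3.68, 17.2 and 2.60 in KO and 5.38, 9.11 and 4.50 in WT, so that KO2 was highest and KO1 and KO3 were lowest. The fit gave Socs1 a log2 fold change of 0.305 ± 0.781 (95% CI -1.63 to 2.24, adjusted p = 0.919), and without KO2 it was -1.006 ± 0.391 (adjusted p = 0.257). Its direction thus turned with KO2, and in neither case did it pass the test.

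Socs3, an inhibitor of signals through gp130 that binds receptor and JAK and lies on chromosome 11 (117966079 to 117970336, minus strand), had 91, 596 and 41 counts across KO1 to KO3 and 164, 135 and 52 counts across WT1 to WT3. Its level was 5.00, 30.5 and 1.94 CPM in KO and 6.84, 7.19 and 2.57 CPM in WT. KO2 lay 4.25-fold above the next highest library, and 8.80-fold above the mean of KO1 and KO3. For Socs3 the log2 fold change was 1.174 ± 1.048 (95% CI -1.42 to 3.77, adjusted p = 0.749), and without KO2 it was -0.67 ± 0.61 (adjusted p = 0.556).

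Of the PIM kinases Pim1, on chromosome 17 (29490785 to 29496111), was the most abundant, and its log2 fold change kept a positive sign in all 17 alternatives tried. It lay at 183.5, 318.1 and 232.3 CPM across KO1 to KO3 and at 178.3, 206.6 and 164.1 CPM across WT1 to WT3. KO2 and KO3 lay above every WT library, and KO1 lay within the WT range. The means were 245 ± 68.2 CPM in KO and 183 ± 21.65 CPM in WT (SD, n = 3 each). Between these means the fitted log2 fold change was 0.42 ± 0.22 (95% CI -0.12 to 0.95; edgeR adjusted p = 0.584; DESeq2 adjusted p = 0.458) and ranged from 0.19 to 0.59 over the alternatives, with adjusted p between 0.349 and 0.997. Without KO2 it was 0.19 ± 0.14 (edgeR adjusted p = 0.476). An antisense annotation, Gm26885, overlaps 14.5% of the Pim1 exons.

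Pim2 lies on the X chromosome (7878306 to 7883432). It had 267, 1555 and 233 counts across KO1 to KO3 and 288, 314 and 241 counts across WT1 to WT3. Its level was 14.7, 79.6 and 11.01 CPM in KO and 12.0, 16.7 and 11.9 CPM in WT. KO2 lay 4.76-fold above the next highest library, while the other 5 differed by at most 1.52-fold. With all libraries the log2 fold change of Pim2 was 1.375 ± 0.800 (95% CI -0.605 to 3.35, adjusted p = 0.619), and it was -0.07 ± 0.22 without KO2 (adjusted p = 0.87).

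Pim3, the third kinase of the family, on chromosome 15 (88862194 to 88865726), lay at 20.1, 23.05 and 27.1 CPM across KO1 to KO3 and at 21.8, 28.8 and 21.5 CPM across WT1 to WT3. The groups overlap and KO2 lies between KO1 and KO3. Pim3 differed by -0.04 ± 0.18 on the log2 scale (95% CI -0.48 to 0.40, adjusted p = 0.961), and by -0.02 ± 0.20 without KO2 (adjusted p = 0.962). The summed CPM of the 3 PIM genes was 218.3 to 420.8 in KO and 197.6 to 252.2 in WT, most of it from Pim1.

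Osm encodes oncostatin M, a cytokine of the IL-6 family that acts through gp130, and lies on chromosome 11 (4236785 to 4241026). It lay at 24.1, 25.0 and 17.2 CPM across KO1 to KO3 and at 23.2, 23.8 and 24.1 CPM across WT1 to WT3. All libraries but KO3 lay between 23.2 and 25.0 CPM. Osm had a log2 fold change of -0.10 ± 0.17 (95% CI -0.51 to 0.31, adjusted p = 0.869), and without KO2 it was -0.195 ± 0.159 (adjusted p = 0.513). Osmr, the gene for its specific receptor chain, was at 0 in all 6 libraries. Il6st, the gene for gp130, had 0, 6.55 and 0 CPM across KO1 to KO3 and 0, 0.479 and 0 CPM across WT1 to WT3.

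**Figure D2:**
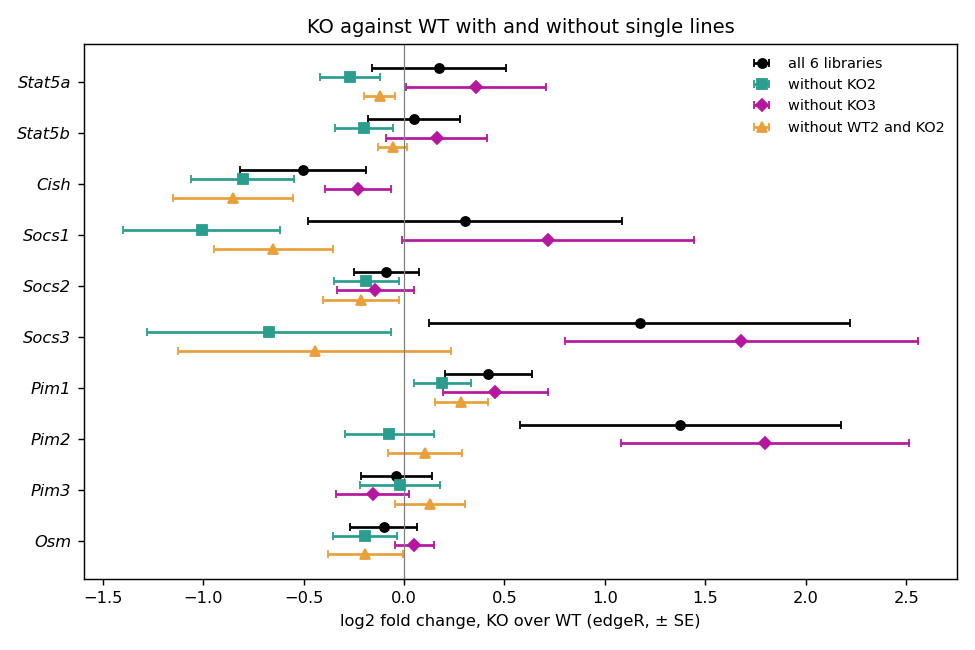
Log2 fold change of each gene, KO over WT, with the SE (edgeR), over all 6 libraries and without KO2, KO3, or WT2 and KO2. Stat5a, Stat5b, Socs1, Socs3 and Pim2 lie right of 0 with all libraries and left of 0 without KO2, while Cish stays left of 0 and Pim1 right of 0 in each.

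KO2 was the highest of the 6 libraries for 7 of the 10 genes, against 31% of all genes tested, and by library totals in place of TMM it was highest for 6. The 3 others were Cish, Socs2 and Pim3, and it was the lowest for 0 of the 10, against 33.6% of all genes. It was at least 2-fold above the next highest library for 2 of the 10, Socs3 and Pim2, against 3.12% of all genes tested, and both also passed 4-fold, against 0.505%. WT2, the library nearest to KO2, was the highest WT library for 7 of the 10 genes, against 41.6% of all genes. KO3 was the lowest library for 6 of the 10 genes, against 22.6%. The genes had been chosen with earlier results of these data known, and no test was made on these counts.

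**Figure D3:**
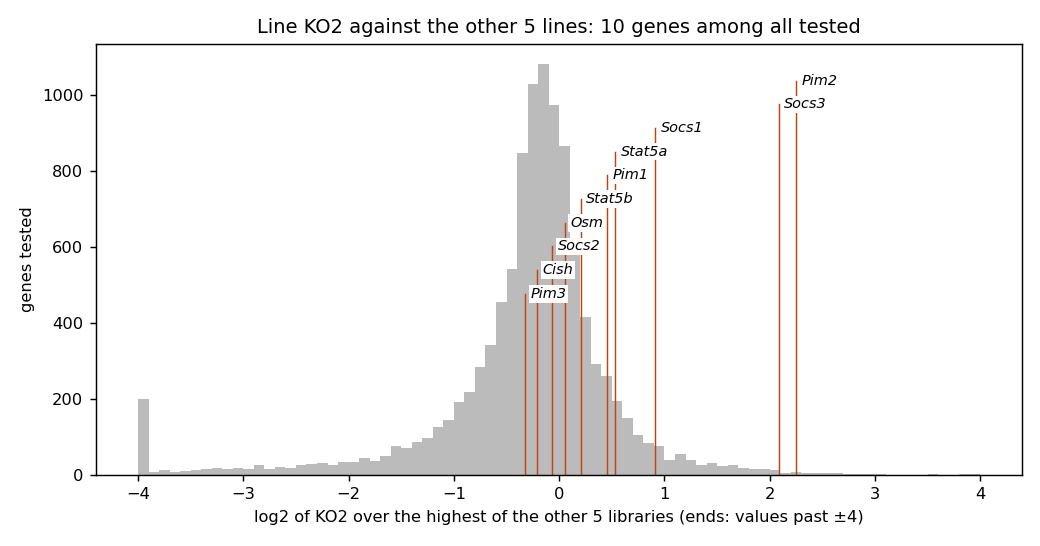
Histogram over the genes tested of the log2 ratio of KO2 to the highest of the other 5 libraries. Lines mark the 10 genes, with Pim2 and Socs3 past 2 (4-fold) and Pim3, Cish and Socs2 below 0.

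The neighbours of each gene were measured (expressed genes within 5 Mb on either side, level against the WT mean on a log2 scale with 0.5 CPM added). The median of the neighbours in KO2 ran from -0.14 (28 genes around Socs1) to 0.11 (38 genes around Pim3). For Pim2, the gene itself was 2.53 above the WT mean in KO2, its 28 neighbours had a median of 0.07, and 0 of them were as far up. For Socs3 the gene was at 2.48, its 93 neighbours at -0.03, and 1 neighbour was as far up. The 28 neighbours of Socs1 included 1 that exceeded the 1.43 of Socs1. The corresponding counts were 10 of 139 around Pim1 (0.80), 13 of 118 around Stat5a (0.80) and 21 of 120 around Stat5b (0.47). Xist, the RNA that silences an X chromosome, lay at 1333, 2.15 and 1638 CPM across KO1 to KO3 and at 1229, 727 and 988 CPM across WT1 to WT3, and 262 expressed X-linked genes had a median of -0.01 in KO2. In KO2 the neighbour medians of Socs3, Pim2 and Socs1 (-0.03, 0.07 and -0.14) were smaller than the values of the genes themselves. A median over 5 Mb on either side does not show a change confined to a single gene. The cause of the KO2 levels was not tested.

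**Figure D4:**
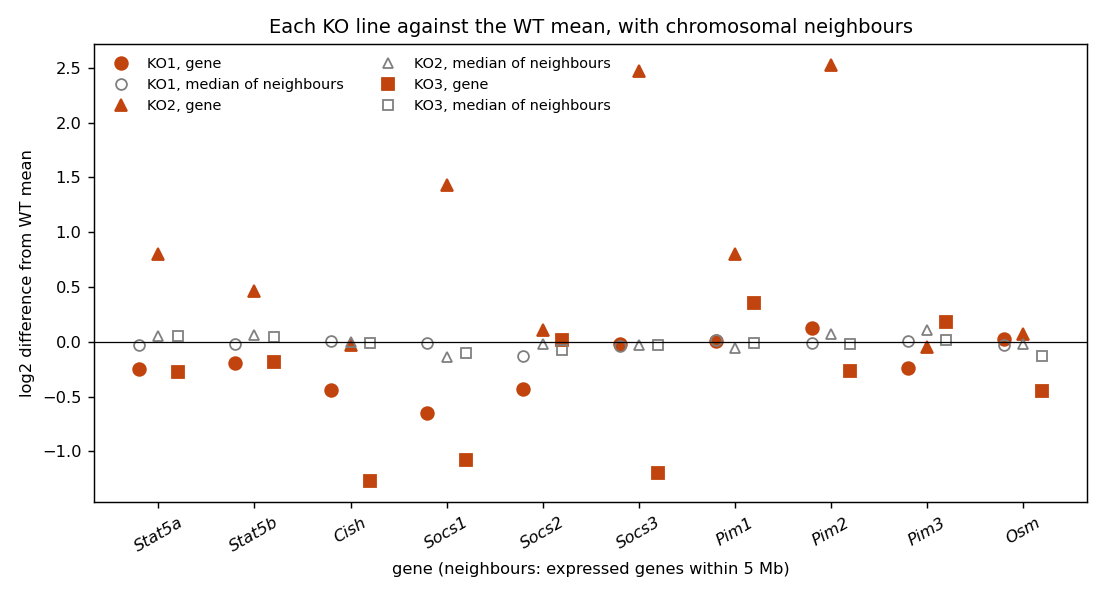
Filled points give each gene across KO1 to KO3 as the log2 difference from the WT mean, and open points the median of its expressed neighbours within 5 Mb. The neighbour medians lie between -0.14 and 0.11, while Socs3 and Pim2 in KO2 lie near 2.5.

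Marker genes of other cell types also stood apart in KO2. Summed plasma cell markers (Sdc1, Prdm1 and Xbp1) lay at 115.7, 332.2 and 136.6 CPM across KO1 to KO3 and at 122.9, 156.0 and 116.1 CPM across WT1 to WT3. Xbp1 made up most of the KO2 sum (64.6, 282.8 and 71.3 CPM in KO and 79.2, 103.6 and 68.8 CPM in WT), while Sdc1 lay at 51.1, 43.7 and 65.3 CPM in KO and at 43.7, 49.6 and 47.3 CPM in WT, with KO2 the lowest KO line. Prdm1, also of this list, had 5.68 CPM in KO2, 2.77 CPM in WT2 and 0 in the others. The summed NK and mast cell list lay at 30.4, 81.3 and 10.8 CPM in KO and at 14.9, 22.6 and 19.1 CPM in WT, most of it Klrb1c (25.6, 80.35 and 9.88 CPM in KO and 14.0, 22.0 and 18.4 CPM in WT), with 4 of its 6 genes (Ncr1, Mcpt8, Fcer1a and Ms4a2) at 0 throughout. The B cell precursor list was lowest in KO2, at 3445 CPM. Their part in the levels of the STAT5, SOCS and PIM genes was not tested, and in bulk RNA fewer cells of a type and less RNA per cell cannot be told apart.

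The genes most like Cish in their pattern, by Pearson correlation of log2 CPM over 6 libraries among the 9314 genes averaging 5 CPM or more, were Prx, Ubtf and Vdac3. Prx (periaxin) correlated at 0.990 and lay at 8.62, 11.2 and 5.63 CPM across KO1 to KO3 and at 12.6, 11.45 and 11.9 CPM across WT1 to WT3. Ubtf, a transcription factor of ribosomal RNA genes, correlated at 0.989 and lay at 446, 463 and 389 CPM in KO and at 474, 469 and 466 CPM in WT. Vdac3, a channel of the outer mitochondrial membrane, correlated at 0.987 and lay at 40.8, 42.1 and 37.0 CPM in KO and at 42.9, 41.2 and 41.7 CPM in WT. Without KO2 the 3 values were 0.990, 0.990 and 0.986. The shared order, KO3 lowest and KO1 next, is a description of 6 points.

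The other genes of the pathway were taken from 10 lists with 101 genes, of which 87 passed the filter. Of these 0 were called by edgeR, 8 had an unadjusted p under 0.05, against 9.45% of all genes, and 0 were called by DESeq2. KO and WT did not overlap for some of the 87, with KO on top for 10, against 8.53% of all genes, and WT on top for 12, against 11%. The median log2 fold change was 0.08. DESeq2 without KO2 called 5 of them, Il7r higher and Il4ra, Csf2rb2, Gimap4 and Ccnd1 lower in KO, against 5.95% of all genes in the same fit. DESeq2 without WT2 and KO2 called 6, among them Il7r, Ccnd2 and Ccnd3 higher and Flt3 and Ccnd1 lower, against 2.89% of all genes. Ccnd1, the gene of cyclin D1, lay at 334.6, 51.0 and 364.7 CPM in KO and at 414.4, 422.2 and 445.0 CPM in WT, so that KO2 was far below the other lines. Il4ra, the IL-4 receptor chain, lay at 23.1, 66.1 and 24.9 CPM in KO and at 35.5, 41.6 and 33.7 CPM in WT. Flt3, a receptor kinase of early progenitors, lay at 8.73, 0 and 7.75 CPM in KO and at 20.4, 9.53 and 16.1 CPM in WT. Ccnd3, the gene of cyclin D3, lay at 2159, 1805 and 2056 CPM in KO and at 1739, 1953 and 1706 CPM in WT.

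Upstream of STAT5, the gene of the IL-7 receptor alpha chain, Il7r, lay above WT in every KO line. It had 346.2, 244.8 and 249.3 CPM across KO1 to KO3 and 193, 172 and 214 CPM across WT1 to WT3 (log2 fold change 0.538 ± 0.165, edgeR adjusted p = 0.486; DESeq2 adjusted p = 0.0863). DESeq2 without KO2 gave 0.63 ± 0.17 (adjusted p = 0.0071) and without WT2 and KO2 0.55 ± 0.17 (adjusted p = 0.0357). Il21r, the receptor of IL-21, lay at 26.4, 39.1 and 44.7 CPM in KO and 23.0, 25.7 and 19.0 CPM in WT (0.70 ± 0.23, edgeR adjusted p = 0.495). Kit, the receptor of stem cell factor, lay at 13.0 CPM in KO1 and at 1.32 to 2.09 CPM in all other libraries. Il2rg, the common gamma chain that pairs with the IL-7 receptor alpha chain and was chosen after its values were seen, lay at 103 ± 2.11 CPM in KO and 102 ± 4.62 CPM in WT. Of the 22 receptor and ligand genes 14 were tested and 0 were called. Every KO library lay above every WT library for 2 of the 14, against 8.53% of all genes tested. The reverse held for 1, against 11%.

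Both genes for beta chains of the IL-3 receptor, of which Csf2rb also serves the IL-5 and GM-CSF receptors, were highest in KO2. Csf2rb, chosen after its values were seen, lay at 129, 511 and 86.1 CPM across KO1 to KO3 and at 153, 270 and 162 CPM across WT1 to WT3, with KO2 and WT2 on top. Csf2rb2, its near copy, lay at 32.7, 202 and 14.1 CPM in KO and 43.1, 84.3 and 47.7 CPM in WT. As paralogs they may share reads.

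Among the 4 JAK kinases 0 were called and KO2 was the highest library for 3. Tyk2 (log2 fold change 0.13), Jak3 (0.31) and Jak1 (0.22) had positive values and Jak2 was at -0.03. Jak1, which pairs with Jak3 below the IL-7 receptor, lay at 349, 688 and 281 CPM across KO1 to KO3 and at 335, 427 and 370 CPM across WT1 to WT3.

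The other STAT genes had positive log2 fold changes in 5 of 5, with a median of 0.40, and 0 were called. Stat2, a factor of interferon signals, lay at 24.3, 31.8 and 26.2 CPM in KO and at 21.1, 20.45 and 18.8 CPM in WT (0.45 ± 0.14, edgeR adjusted p = 0.482). Every KO library lay above every WT library for 2 of these 5 genes, Stat2 among them, against 8.53% of all genes tested. Stat4, which carries IL-12 signals, had a log2 fold change of 0.33 ± 0.14 (adjusted p = 0.534).

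Of the remaining inhibitors, 0 of 4 other SOCS genes and 0 of 11 phosphatase and PIAS genes were called. Socs4 lay at 59.5, 57.1 and 69.7 CPM in KO and at 53.5, 54.7 and 56.8 CPM in WT, and Socs5 and Socs6 had log2 fold changes of -0.89 ± 0.48 and -0.26 ± 0.26. Dusp1, a phosphatase of MAP kinases, lay at 5.49, 6.04 and 4.25 CPM in KO and at 7.43, 7.51 and 6.88 CPM in WT (-0.465 ± 0.213, adjusted p = 0.552). Pias1 (0.205 ± 0.118) and Pias3 (0.18 ± 0.15), inhibitors of DNA-bound STATs, had small positive values. Around Osm, the gp130 ligands Clcf1 and Lif had log2 fold changes of 0.86 ± 0.38 and 0.65 ± 0.34, and Lifr, a receptor chain for LIF, one of -0.21 ± 0.71, all with edgeR adjusted p of 0.543 or more.

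Of other genes known as STAT5 targets 8 of 13 had a positive log2 fold change, the median was 0.24 and 0 were called. Bcl2l1, which encodes the survival protein BCL-XL, lay at 170, 266 and 194 CPM across KO1 to KO3 and at 134, 169 and 155 CPM across WT1 to WT3 (0.46 ± 0.19, edgeR adjusted p = 0.532). Spred1, an inhibitor of the ERK pathway, lay at 175, 214 and 195 CPM in KO and at 171, 153 and 155 CPM in WT (0.285 ± 0.096, adjusted p = 0.495). These were the 2 of 13 genes with every KO library above every WT library, against 8.53% of all genes. In 2 others, Ccnd1 and Bcl6, every KO library lay below every WT library, against 11% of all genes. Bcl6, a repressor named after its values were seen, lay at 2.20, 0.717 and 1.61 CPM in KO and at 2.38, 2.56 and 2.42 CPM in WT. Ccnd2, the gene of cyclin D2, lay at 418, 1017 and 485 CPM in KO and at 354, 484 and 342 CPM in WT (0.70 ± 0.37). Gimap4, which without KO2 was called lower, lay at 49.6, 454 and 104 CPM in KO and at 189, 261 and 256 CPM in WT, so that KO2 was its highest library.

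Genes of PIM substrates and partners had 0 of 13 called and a median log2 fold change of -0.11. Cdc25a, a phosphatase that activates CDKs, lay at 165, 140 and 157 CPM in KO and at 176, 178 and 175 CPM in WT (-0.20 ± 0.08, adjusted p = 0.528). Cdkn1b, the CDK inhibitor p27, lay at 31.0, 50.0 and 40.75 CPM in KO and at 29.75, 32.0 and 30.7 CPM in WT (0.40 ± 0.18). Cxcr4, a chemokine receptor, lay at 141, 104 and 53.6 CPM in KO and at 146, 181 and 167 CPM in WT (-0.726 ± 0.345, adjusted p = 0.56). Among cofactors and antagonists of STAT5, 0 of 11 were called. Ep300, a histone acetyltransferase, had a log2 fold change of 0.17 ± 0.10, and Hdac3, a histone deacetylase, one of -0.24 ± 0.15.

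The BCR-ABL partner loci and adaptors had 0 of 8 tested genes called. Abl1, chosen after its values were seen, lay at 797, 623 and 763 CPM in KO and at 771, 646 and 716 CPM in WT (0.03 ± 0.12). Gab2, an adaptor needed by BCR-ABL, lay at 66.45, 81.1 and 59.5 CPM in KO and at 52.2, 58.0 and 55.3 CPM in WT (0.32 ± 0.13, adjusted p = 0.529). Fyn (-0.23 ± 0.11) and Grb2 (-0.15 ± 0.08), a SRC family kinase and an adaptor, lay below WT in all KO libraries without passing the test. Such a split held for 2 of the 8 genes, against 11% of all genes tested. Gab2 was the 1 of the 8 with every KO library above every WT library, against 8.53% of all genes tested.

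**Figure D5:**
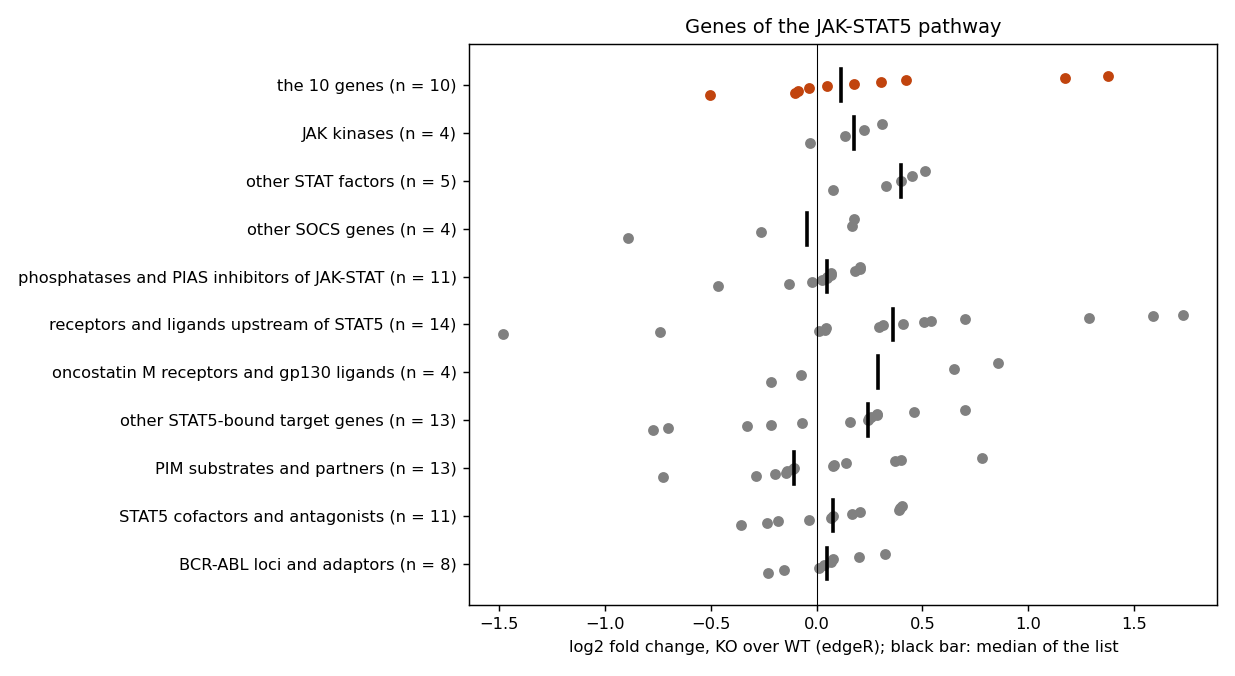
Log2 fold changes, KO over WT (edgeR), of the 10 genes and of the tested genes of 10 pathway lists. Points are genes and black bars medians, from 0.40 for the other STAT factors to -0.11 for PIM substrates and partners, and none of the points passed the test.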

How the data were processed

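RNA of 3 KO and 3 WT lines was prepared with a TruSeq kit and sequenced, per the labels' protocols. The deposited table holds raw counts per gene symbol, 1 column per library. Trim Galore, STAR, DESeq2 and GRCm38 are named in the submitters' processing notes; for versions, counter and strandedness nothing was found in the labels. The members and lists were chosen with earlier results of these data known. Every column was matched to a sample by its title.

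The main test was edgeR 4.0.16 (R 4.3.3): TMM scaling, filterByExpr, robust quasi-likelihood F test over all 6 libraries, Benjamini-Hochberg adjusted p under 0.05, two-sided. CPM are counts scaled by TMM. SEs are the log2 fold change over the root of F. log2 CPM used a prior count of 2. DESeq2 1.42.0 and limma-voom 3.58.1 were alternatives, as were other scalings, filters, a replicate block and leaving out libraries. DESeq2 gave no adjusted p for 14753 rows. The tests were also run on simulated counts in which no line stood apart as KO2 does. That check does not cover data with such a line. Same-numbered KO and WT libraries deviated together (r = 0.326, 0.643 and 0.457 for 1, 2 and 3, each above 0.1), so by that limit the numbers were taken to pair them in the block. Other pairs among libraries 1 and 3 correlated as much (KO1 with WT3 0.361, KO3 with WT1 0.406), so the numbers did not separate 1 from 3. Deviations were taken from the mean of each group of 3. A shared departure of KO2 and WT2 can thus make pairs among 1 and 3 positive, so values above 0.1 do not show pairing there. Named pathway genes were the 3 of each list with the smallest p, and those called; some of these are not reported here. Intervals cover the spread between lines. The SE was largest for Socs3, Pim2 and Socs1 (1.048, 0.800 and 0.781), and without KO2 it was 0.608, 0.221 and 0.391. Socs1 and Socs3 had the lowest WT counts of the 10 genes. Exon lengths and 50-base words came from GENCODE M21, locations and promoters from RefSeq GRCm38.p6.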

Additional observations from a re-analysis of the deposited data

How the results depend on the processing

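The 10 genes had 0 edgeR calls under every scaling, filter and dispersion setting, with the block, and without each library or without WT2 and KO2. With every library in, DESeq2 called 218 genes; it called 684 without KO2 and 340 without WT2 and KO2, and among them 1 (Cish), and 0, of the 10 genes and 5 and 6 pathway genes. Of 170 recomputed log2 fold changes of the 10 genes, 141 kept direction and side of the threshold. The cause of the others was not tested beyond the library left out.

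Leaving out each library in turn gave log2 fold changes of -0.27 to 0.36 for Stat5a, -0.20 to 0.196 for Stat5b, -1.006 to 0.72 for Socs1, -0.19 to 0.062 for Socs2, -0.67 to 1.68 for Socs3, -0.073 to 1.80 for Pim2, -0.16 to 0.11 for Pim3, -0.195 to 0.051 (without KO3) for Osm and -0.22 to 0.31 for Cdk6. The range was -0.80 to -0.23 for Cish and 0.19 to 0.59 for Pim1. Single turns of sign were -0.04 for Stat5b and 0.005 for Socs2 without WT1, 0.062 for Socs2 and 0.064 for Pim3 without KO1 and 0.11 for Pim3 without WT2. Without WT2 and KO2 the values that turned were -0.12 for Stat5a, -0.057 for Stat5b, -0.65 for Socs1, -0.44 for Socs3, 0.13 for Pim3 and -0.245 for Cdk6, and DESeq2 gave -0.12, -0.058, -0.65, -0.44, 0.13 and -0.246. DESeq2 without KO2 gave -0.27, -0.20, -1.009, -0.675 and -0.075 for Stat5a, Stat5b, Socs1, Socs3 and Pim2, and -0.225 for Cdk6. In limma-voom Socs1 was at -0.13 and Socs3 at 0.37.

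With the replicate block Socs1 was at -0.14, Socs3 at 0.40 and Pim2 at 0.79, and the block changed no call. Of genes whose groups did not overlap, 43.6% had KO higher by TMM (929 against 1202) and 54.9% by library totals (1153 against 946), with 0 of the 10 genes among them.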
